A study of Danio rerio with 6 samples.

Results

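The genes examined here build and run the cargo transport of the cilium, in reporter-positive eye cells of larval zebrafish (Danio rerio). They were taken from the deposited gene table by symbol: every entry whose name begins with ift or bbs and a number, and the listed motor, small GTPase and transition zone genes dync2h1, dync2li1, kif3a, kif3b, kif3c, kif17, kifap3a, kifap3b, arl6, arl3, ttc8 and cep290. Among the 14781 genes listed there, 27 matched, and 24 of these reached a level of 10 normalized counts in 3 or more of 6 libraries. The other 3 were at 0 in all 6 libraries, as were 2264 of the 14781 genes. Those 3 were the intraflagellar transport genes ift122 and ift27 and the BBSome subunit ttc8. A count of 0, with its limit set at 3 reads, allows up to 2.24 to 3.99 normalized counts per library. This limit covers counting only. Whether reads of these genes went unassigned was not tested, so the zeros do not show that the transcripts were absent. The symbols kif3c and kif17 had no entry and were not analysed here, except that kif3cb, of which kif3c is an older name, is described below. No member passed through 1 genotype alone, since 23 of the 24 had at least 10 normalized counts in all 6 libraries and the remaining gene, ift57, in 5.

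All larvae were 5 days post-fertilization and came from a cross in which 1 parent carried thrb:tdTomato, a red fluorescent reporter driven by regulatory sequence of the thyroid hormone receptor gene thrb, which marks red cones. Fluorescent cells were sorted from WT larvae (3 libraries) and from larvae labelled samd7-/-, whose parents were both homozygous for the stl888 allele of samd7, a Polycomb-family gene of photoreceptors (3 libraries). Each library pooled the dissected eyes of 20 to 25 larvae of a separate clutch, and the genotypes had different parents, so that genotype and parental line cannot be told apart. Only part of each clutch was genotyped. Values are normalized counts, which are read counts divided by 1 scaling factor per library, so they can be compared between libraries for a gene but not between genes, whose lengths differ.

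The 6 libraries held 13435570 to 20369266 recovered reads. The main red opsin opn1lw2 fell, from 1479085 to 1693387 normalized counts in WT to 500401 to 1010644 in mutant-labelled libraries (limma adjusted p = 0.00510). The summed level of 15 cone genes was at 3851785 to 3923815 and 2473675 to 4114729, but its genes moved in both directions: 8 fell and 2 rose. Besides opn1lw2 the cone genes arr3a, pde6h, grk7a, pde6c and gnat2 fell to between 1.36% and 61.3% of WT, and the green opsin genes opn1mw1 and opn1mw2 were at 0 in all mutant-labelled libraries. The red opsin gene opn1lw1 and the arrestin gene arr3b rose, arr3b from 7253 to 511776 on average, and the ultraviolet opsin gene opn1sw1 had means of 28128 and 1167971 (limma adjusted p = 0.0720). These 10 calls held in 9 to 16 of 16 alternative analyses each. The part of these cone gene differences in the results below was not tested. The transcript of samd7 was higher, not lower, in mutant-labelled libraries (7683 ± 896 in WT and 24329 ± 543, SD, n = 3 per genotype as for all levels below). What stl888 does to the transcript is not in the labels, so the level is no check of them, and these are named mutant-labelled libraries below. On the first principal component of all tested genes WT library 2 and mutant-labelled library 3 lay farthest out in their groups, at -88.9 and 112, and results are also given without both.

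A photoreceptor outer segment is a modified cilium with no ribosomes of its own, so its proteins are made in the inner segment and carried through a narrow connecting cilium. Intraflagellar transport (IFT) trains made of the IFT-B and IFT-A complexes move outward along the axoneme with kinesin-2 motors and back with dynein-2, while the BBSome, a coat of BBS proteins recruited by the small GTPase ARL6, links membrane proteins to these trains. Lipid-anchored proteins travel another way: the carriers UNC119 and PDE6D bind their lipid tails, and the GTPase ARL3 releases them inside the cilium once it is loaded with GTP. Loss of many of these genes is known to cause retinal degeneration in people and in fish.

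Transcripts of this machinery were mostly lower in mutant-labelled libraries, by modest amounts, and 1 of the 24 genes passed the test. The small GTPase gene arl3 fell to 62.7% of its WT mean, and 0 members rose. Each gene was tested with limma on log2(value + 1) in a fit over all 9886 genes past the same filter, and a gene counted as changed where its Benjamini-Hochberg adjusted p was under 0.05. The 1 member that fell was 4.17% of the 24, and 3.90% of all tested genes fell (386, with 125 higher, or 5.17% called in either direction), so this count is near what the whole table gives. With edgeR 1 member was lower (arl3, against 2.97% of all genes), and with DESeq2 2 were (arl3 and bbs4, against 5.51%).

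The shift of the group as a whole was wider than its calls. The log2 difference, mutant-labelled minus WT, was below 0 for 21 of the 24 members (87.5%), as it was for 47.6% of all tested genes. Its median over the members was -0.56, against 0.05 over all tested genes, and its range ran from -2.59 to 0.28. All 3 mutant-labelled libraries lay below all 3 WT libraries for 10 members (41.7%), as they did for 12.4% of all tested genes, and the opposite arrangement held for 0 members, against 12.1%. An unadjusted limma p under 0.05 with a lower level was reached by 8 members (33.3%), against 9.85% of all tested genes. The members share libraries and are not independent, so these are descriptions with no test of the group.

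**Figure D1:**
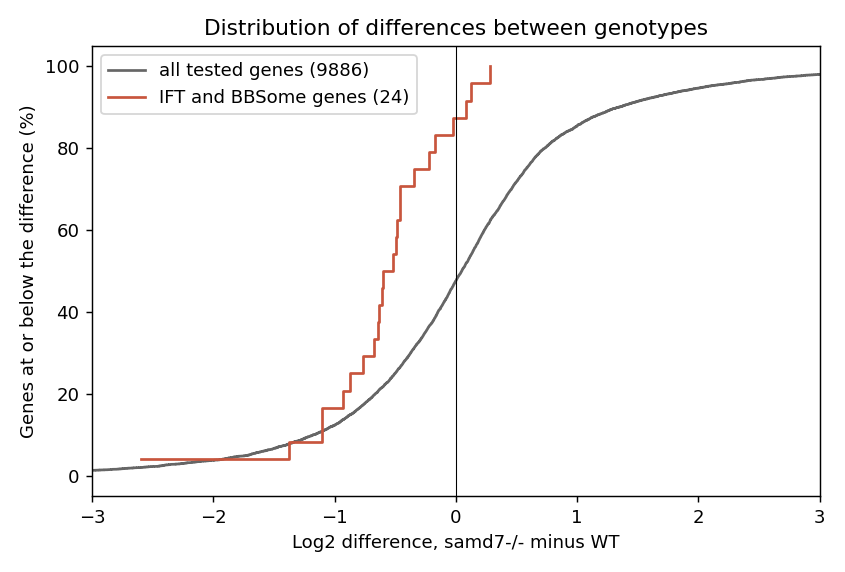
Cumulative share of genes (vertical axis, in percent) at or below each log2 difference, mutant-labelled minus WT (horizontal axis, drawn from -3 to 3), for the 24 IFT and BBSome genes and for all 9886 tested genes. The curve of the members reaches 87.5% at a difference of 0, where that of all tested genes stands at 47.6%.

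Summed over the 24 genes, WT libraries 1 to 3 held 33310, 34831 and 33530 normalized counts, and mutant-labelled libraries 1 to 3 held 25275, 25279 and 26342. Genes with many counts weigh most in such a sum, above all cep290 and arl3, with WT means of 6387 and 5162. The sums thus did not overlap and varied little within a genotype, which does not hold for every member. As a share of all counts of the library, which needs no scaling factor, they were 0.1773%, 0.1889% and 0.1875% in WT and 0.1662%, 0.1785% and 0.1483% in mutant-labelled libraries, so that mutant-labelled library 2 lay just above WT library 1 and the genotypes overlapped. Scaling by library totals in place of the authors' factors moved the median of all genes up by 0.23 on the log2 scale. Under it the median of the members was -0.33 against 0.28 for all genes, 18 of 24 members (75.0%) were below 0 against 36.2%, and 4 (16.7%) lay below WT without overlap against 7.8%. Under that scaling 0 members passed the test, although 415 genes were higher and 252 lower (2.55% lower), against 125 and 386 under the authors' factors. In sorted bulk samples fewer cells of a type and less RNA per cell cannot be told apart, and this holds for every level here.

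**Figure D2:**
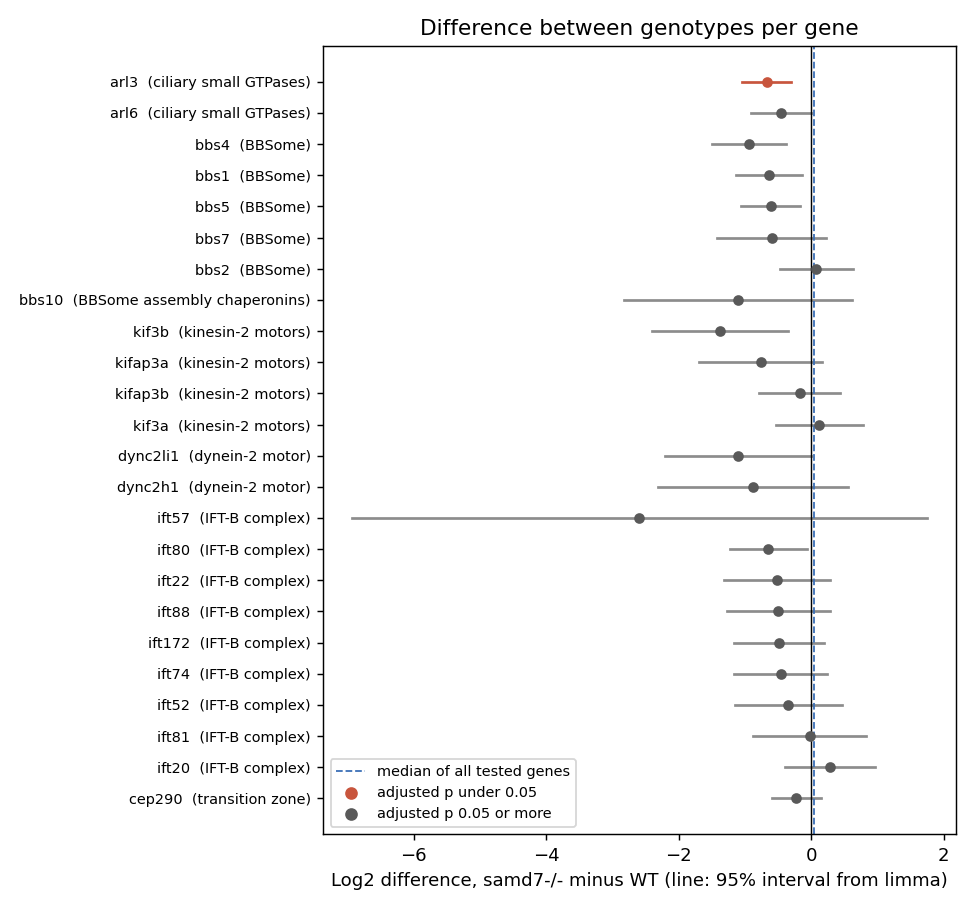
Log2 difference, mutant-labelled minus WT, of each of the 24 genes (points) with its 95% interval from limma (lines), grouped by complex, with the median of all tested genes dashed. Of these only arl3 is drawn as passing the test, and the interval of ift57 is the widest because 1 library was at 0.

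Both small GTPase genes, arl3 and arl6, were lower without overlap, and arl3 passed the test. ARL3, the GTPase that unloads lipid-anchored cargo in the cilium, had an arl3 level of 4896, 5425 and 5164 in WT and of 3327, 3108 and 3275 in mutant-labelled libraries. This was the smallest spread within genotypes of any member, with a coefficient of variation of 5.1% in WT and 3.5% in the other group, and no overlap. The log2 change of arl3 was -0.67 (SE 0.17, 95% interval -1.04 to -0.31, limma adjusted p = 0.0357). Its call held in 6 of 16 alternatives. It was lost when any library other than mutant-labelled library 3 was left out, with an adjusted p of 0.0799 to 0.160, the highest without WT library 2. It was also lost with the replicate number as a block (adjusted p = 0.0787), without a filter (0.0507), with library totals (0.145, log2 difference -0.44), without both outlying libraries (0.130) and without the trend and robust options (0.263). In the authors' deposited table the adjusted p was 0.000489 for arl3.

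For arl6, whose product recruits the BBSome to membranes, WT libraries held 1963, 2039 and 1673 and mutant-labelled libraries 1221, 1334 and 1578. The genotypes did not overlap, but the gap was narrow and the log2 difference of -0.46 did not pass (SE 0.21, limma adjusted p = 0.256).

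Genes that work with ARL3 were read from a list with 8 genes in the table, all of which were tested. Of these 4 fell and 0 rose, while 3.9% of all tested genes fell. The median log2 difference was -0.69, and all 8 values were below 0 (7 under library totals). Of all tested genes 47.6% were below 0 (36.2% under library totals). The gene rp2 encodes the protein that switches ARL3 off after unloading. Its level was 5148, 5513 and 4618 in WT and 2044, 1768 and 2444 in mutant-labelled libraries, with a wide gap between the genotypes (log2 change -1.30, SE 0.19, limma adjusted p = 0.00135). The small GTPase gene arl13a went from 10483, 11676 and 10161 to 3522, 4652 and 4168 (log2 change -1.40, SE 0.17, limma adjusted p = 0.000374). For the carriers, pde6d, which binds prenylated proteins such as cone phosphodiesterase, went from 7204, 7577 and 6553 to 4212, 5066 and 4180 (log2 change -0.67, SE 0.17, limma adjusted p = 0.0387). For all 3 genes the highest mutant-labelled value was below the lowest WT value, as it was for 12.4% of all tested genes. The list also held unc119b, a carrier of myristoylated proteins such as transducin (35602 ± 4630 and 18032 ± 2417, log2 change -0.98, limma adjusted p = 0.00311).

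The other 4 genes of that list, unc119.1, arl2, arl2bp and inpp5e, did not pass, with log2 differences of -0.71, -0.18, -0.65 and -0.45. The calls of rp2, arl13a and unc119b held in 15 of 16 alternatives each and were lost without the trend and robust options, with adjusted p of 0.145, 0.127 and 0.195. The call of pde6d held in 6 of 16, with an adjusted p up to 0.175 when 1 library was left out (WT library 2) and of 0.0535 with edgeR's quasi-likelihood test. Under library totals the call of pde6d was lost (adjusted p = 0.177) while those of rp2 (0.00297), arl13a (0.00155) and unc119b (0.00334) were not.

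**Figure D3:**
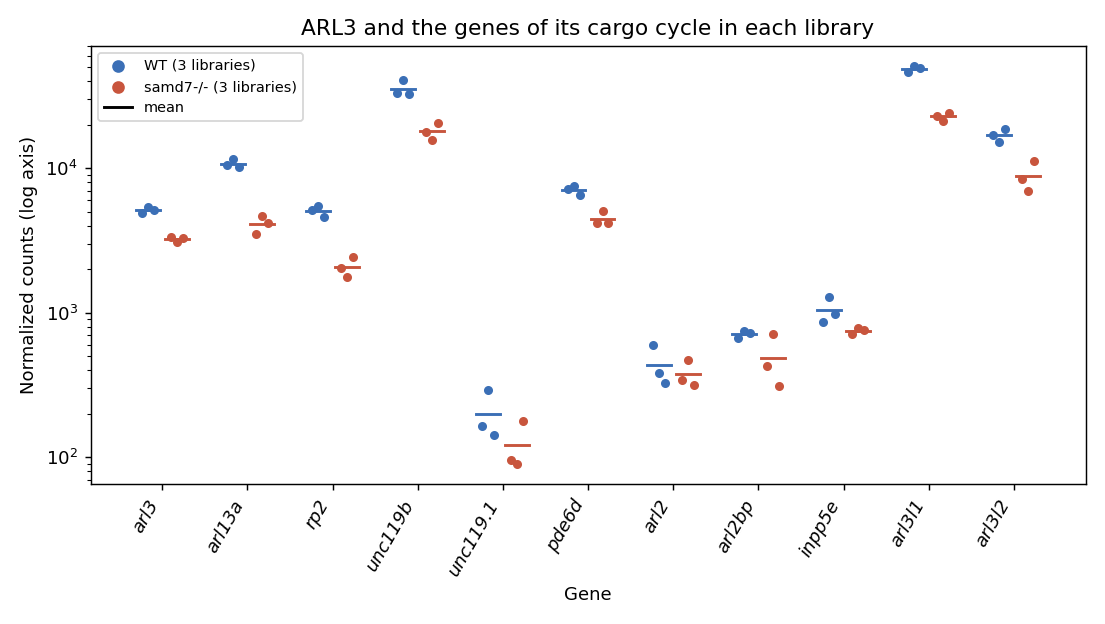
Normalized counts (log axis) of arl3, the listed genes that work with ARL3, and the arl3 copies arl3l1 and arl3l2 in each of the 6 libraries, with the mean of each genotype as a bar. The genotypes do not overlap for arl3, arl13a, rp2, unc119b, pde6d, inpp5e, arl3l1 and arl3l2, all of them lower. Of all tested genes 12.4% were lower without overlap. Heights of different genes are not comparable because lengths differ.

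BBSome subunits among the members were lower for 4 of the 5 genes with a value above 0, and 0 passed the test. Under library totals 4 were lower as well, and 47.6% of all tested genes were lower (36.2% under library totals). BBS4, a subunit that binds centriolar satellite proteins, had a bbs4 level of 2440, 1893 and 1620 in WT and of 1190, 1230 and 733 in mutant-labelled libraries. The genotypes did not overlap, and the log2 difference of -0.93 narrowly missed the threshold (SE 0.26, 95% interval -1.49 to -0.37, limma adjusted p = 0.0558). It passed in 4 of 16 alternatives, among them DESeq2 (adjusted p = 0.0186) and the fit with the replicate number as a block (0.0427). Those numbers were not taken to pair libraries. The authors' deposited table gives 0.0229. Its adjusted p rose to 0.202 without WT library 1, which held the highest level. It was 0.0862 with edgeR, 0.186 with library totals, 0.229 without both outlying libraries and 0.289 without the trend and robust options.

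Among the other subunits, bbs1, which contacts ARL6, and bbs5, which binds membrane lipids, were also lower without overlap. For bbs1 WT libraries held 2011, 1562 and 1584 and mutant-labelled libraries 940, 1024 and 1370. The log2 differences of bbs1 and bbs5 were -0.64 (SE 0.23, limma adjusted p = 0.150) and -0.61 (SE 0.21, limma adjusted p = 0.121). The core subunits bbs7 and bbs2 overlapped between genotypes and spread widely within them. For bbs7 the mutant-labelled libraries ranged from 793 to 2243 and the WT libraries from 1429 to 3171 (log2 difference -0.60, limma adjusted p = 0.437). The difference of bbs7 was -0.17 without mutant-labelled library 3, -0.92 without mutant-labelled library 1 and -0.14 without both outlying libraries. For bbs2 they ranged from 1845 to 3572 and from 1826 to 2545 (log2 difference 0.08, limma adjusted p = 0.910). Mutant-labelled library 3 held the lowest value of its group for bbs4 and bbs7 and the highest for bbs1 and bbs2, so the subunits did not move together in that library. The chaperonin-like gene bbs10, which helps assemble the BBSome, was low, with 148, 152 and 97.2 in WT and 23.1, 73.2 and 125 in mutant-labelled libraries. These rest on 28 to 156 reads, and the log2 difference of -1.11 did not pass (SE 0.80, limma adjusted p = 0.510).

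The kinesin-2 outward motor examined here is a trimer of KIF3A, KIF3B or KIF3C, and an adaptor encoded by kifap3a or kifap3b. The listed motor gene kif17 had no entry. For kif3b WT libraries held 327, 351 and 266 and mutant-labelled libraries 171, 92.6 and 109. The highest mutant-labelled library was below the lowest WT library, and the mean was 39.4% of WT, but the log2 difference of -1.37 did not pass (SE 0.48, 95% interval -2.40 to -0.35, limma adjusted p = 0.128). Its partner kif3a showed no such difference, with 761, 1769 and 1519 against 1662, 1082 and 1475. The log2 difference of kif3a was 0.12, with an interval from -0.54 to 0.78 that still leaves room for a change in either direction (limma adjusted p = 0.876).

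The adaptor kifap3a held 370, 312 and 349 in WT and 182, 309 and 146 in mutant-labelled libraries, with the highest mutant-labelled value just below the lowest WT one. Its log2 difference was -0.76 (SE 0.43, limma adjusted p = 0.375). For its paralog kifap3b the values were 1149, 1093 and 1302 against 1608, 893 and 793, with overlap and a log2 difference of -0.17 (limma adjusted p = 0.798) that turned to 0.058 under library totals. The share of kifap3a in the summed counts of both adaptors needs no scaling. Because lengths differ between genes, it cannot be read as a share of molecules. It came to 24.4%, 22.2% and 21.1% in WT and to 10.2%, 25.7% and 15.5% in mutant-labelled libraries (two-sided exact permutation p = 0.4, where 0.1 is the smallest that 3 against 3 libraries allow). The sources used here do not state how reads common to both copies were assigned. The alternative partner kif3cb did not reach the filter, with 0, 0 and 6.66 in WT and 148, 0 and 41.9 in mutant-labelled libraries. Its share in the summed counts of kif3b and kif3cb came to 0%, 0% and 2.44% in WT. In mutant-labelled libraries that share was 46.4%, 0% and 27.7%, with overlap (two-sided exact permutation p = 0.4).

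Both dynein-2 subunits among the members had lower means and few reads. The light intermediate chain dync2li1 held 277, 223 and 391 in WT and 199, 152 and 79.3 in mutant-labelled libraries, without overlap (log2 difference -1.11, SE 0.51, limma adjusted p = 0.259). The heavy chain dync2h1 held 102, 178 and 241 against 53.7, 74.0 and 175, with overlap and a log2 difference of -0.88 (SE 0.67, limma adjusted p = 0.534). Only 65 to 201 reads stood behind a value of dync2h1, and its spread was wide in both groups. Among 7 other dynein-2 and light chain genes tested 0 rose and 0 fell, with a median log2 difference of 0.10 (0.33 under library totals). The intermediate chain gene wdr34 had higher values in mutant-labelled libraries without overlap, 226, 303 and 202 against 24.1, 68.3 and 148 (log2 difference 1.92, limma adjusted p = 0.149). The light chain gene dynll2b was also higher without overlap (log2 difference 1.03, limma adjusted p = 0.117) and passed with DESeq2 (0.0416) and under library totals (0.0375). The light chain gene dynlt1 was lower without overlap (log2 difference -0.60, limma adjusted p = 0.379). Of all 9886 tested genes 12.1% were higher and 12.4% lower without overlap. With DESeq2 325 of them were called higher, and under library totals 415, a scaling that moved the median of all genes up by 0.23.

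**Figure D4:**
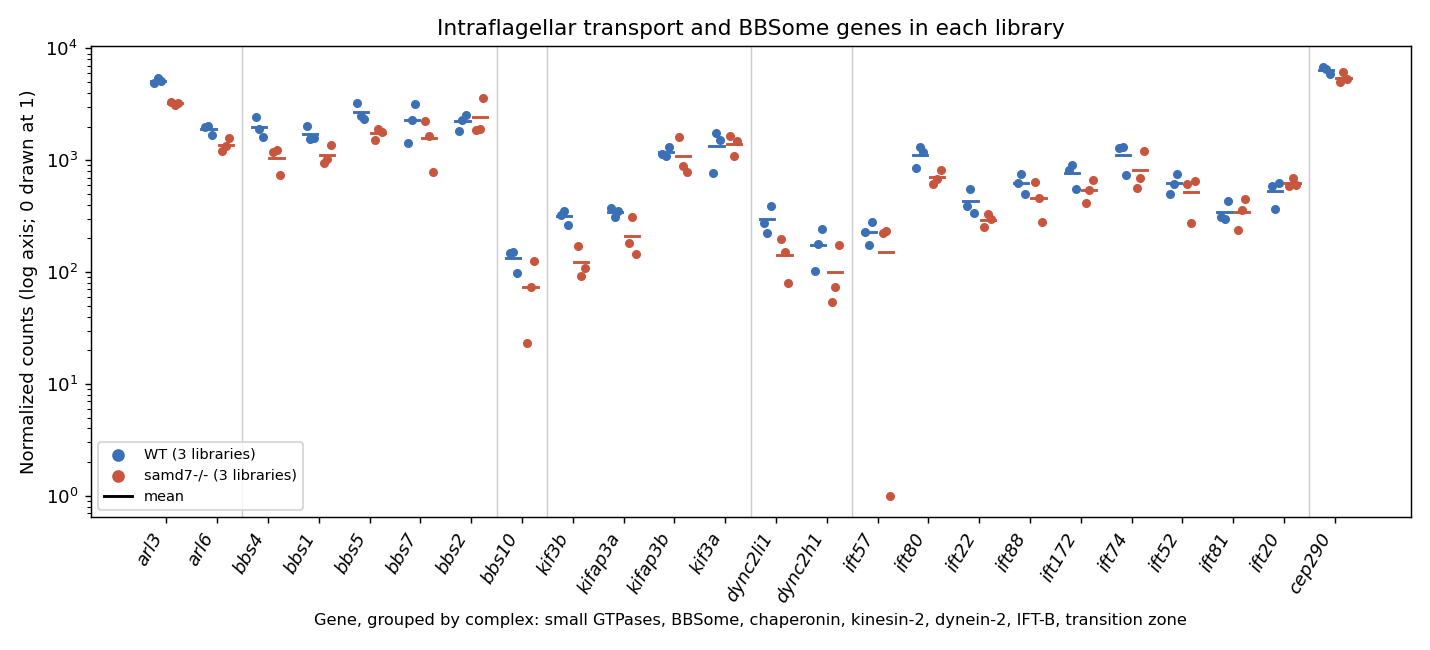
Normalized counts (log axis, with 0 drawn at 1) of the 24 genes in each of the 6 libraries, grouped by complex, with the mean of each genotype as a bar. The arl3 libraries lie closest together, ift57 has 1 mutant-labelled library at 0, and heights of different genes are not comparable because lengths differ.

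IFT-B, the complex that carries cargo outward, gave 9 members, of which 8 had values below 0, 0 passed the test, and the median log2 difference was -0.49. Under library totals 7 were below 0 with a median of -0.26, and without both outlying libraries the median was -0.34. The share of all tested genes below 0 was 47.6% (36.2% under library totals). For ift80 WT libraries held 852, 1315 and 1175 and mutant-labelled libraries 613, 679 and 824. The genotypes were separate by a small margin, and the log2 difference was -0.65 (SE 0.27, limma adjusted p = 0.207). The small GTPase-like subunit ift22 was likewise lower without overlap (429 ± 111 and 295 ± 40.6, log2 difference -0.52, limma adjusted p = 0.508). The log2 differences of ift172, ift88, ift74 and ift52 lay between -0.50 and -0.35, all with overlapping libraries. With 1 library left out, these ranged from -0.70 to -0.31 for ift172, -0.78 to -0.19 for ift88 and -0.78 to -0.23 for ift74, and ift88 was at -0.041 without both outlying libraries. The tubulin-binding partner of ift74, ift81, was at 347 ± 76.8 and 348 ± 108 (log2 difference -0.02, with a sign that turned under library totals, edgeR and DESeq2), and ift20 had the highest log2 difference of the members, 0.28 (SE 0.32, limma adjusted p = 0.694). That of ift20 was 0.042 without WT library 2, where kif3a was higher (0.36).

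The largest log2 difference among the members by limma, that of ift57, rested on 1 library. For ift57 WT libraries held 227, 176 and 282 and mutant-labelled libraries 221, 232 and 0. Mutant-labelled libraries 1 and 2 thus lay within the WT range, and the third had no read, which allows up to 2.62 normalized counts. The log2 difference was -2.59 (SE 1.90, limma adjusted p = 0.529) and 0.016 without that library. With edgeR and DESeq2 it was -0.59 for ift57, and kif3b had the largest difference, -1.34 with both. Without ift57 the median over the remaining 23 members was -0.52.

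The transition zone gene cep290, whose product spans membrane and microtubules of the connecting cilium, was close between the genotypes. WT libraries held 6774, 6502 and 5886 and mutant-labelled libraries 4960, 6153 and 5329, with overlap. Its log2 difference was -0.22 (SE 0.17, 95% interval -0.59 to 0.14, limma adjusted p = 0.534) and 0.0078 under library totals.

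Genes of the same machinery under other symbols were read from further lists. Of 17 symbols for IFT and BBSome proteins 11 were in the table besides the members, 9 were tested and 0 passed, with a median log2 difference of -0.28 and 7 values below 0. Under library totals the median was -0.050 with 5 values below 0, and without both outlying libraries it was -0.49. Among all tested genes 47.6% were below 0, and 36.2% under library totals. The IFT-B subunit ttc26 had the lowest value of these, with 623, 885 and 454 in WT and 159, 332 and 516 in mutant-labelled libraries (log2 difference -1.06, limma adjusted p = 0.203). The BBSome subunit bbip1 was at 1864 ± 335 and 1285 ± 384 (log2 difference -0.56, limma adjusted p = 0.244). The gene hspb11, which encodes the partner of IFT27 in the complex, was at 0 in all 6 libraries, as was ift27 itself. From the same list trim32 was also at 0 in all 6 libraries. Whether reads of these genes went unassigned was not tested. IFT-A had no member past the filter, since ift122 was at 0, and its subunit genes wdr35 and ttc21b did not pass the test.

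Beyond the trains, the median log2 difference of 12 tested transition zone genes was -0.23 and that of 15 basal body and satellite genes 0.55, with 0 genes passing in either list. The first median was 0.0036 under library totals, and the second turned to -0.23 without both outlying libraries. The photoreceptor axoneme list had 3 genes in the table, and of the cilium transcription factors 3 were tested and 0 passed, with a median of 0.50 (0.20 without both outlying libraries). In the axoneme list cdhr1a, a cadherin at the base of the outer segment, fell (6009 ± 918 and 2804 ± 1256, log2 change -1.18, limma adjusted p = 0.0179). Its call held in 10 of 16 alternatives, with an adjusted p of 0.0608 with edgeR, up to 0.0908 with 1 library left out (WT library 2) and of 0.276 without the trend and robust options. The kinase gene mak, also tested in that list, had a log2 difference of -0.06 (limma adjusted p = 0.922).

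Within a genotype no single library held the lowest or the highest value of every member. The median deviation of the members from their own means over the 6 libraries was 0.26, 0.39 and 0.20 on the log2 scale in WT libraries 1 to 3 and -0.30, -0.25 and -0.12 in mutant-labelled libraries 1 to 3. Over all tested genes the corresponding medians lay between 0.036 and 0.090. Mutant-labelled library 1 held the lowest value of its genotype for 13 members and library 3 the highest for 10, while library 3 also held the extreme low values of ift57, bbs7, ift88 and dync2li1. Without WT library 2 and mutant-labelled library 3 the median over the members was -0.55, and 0 members passed the test.

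**Figure D5:**
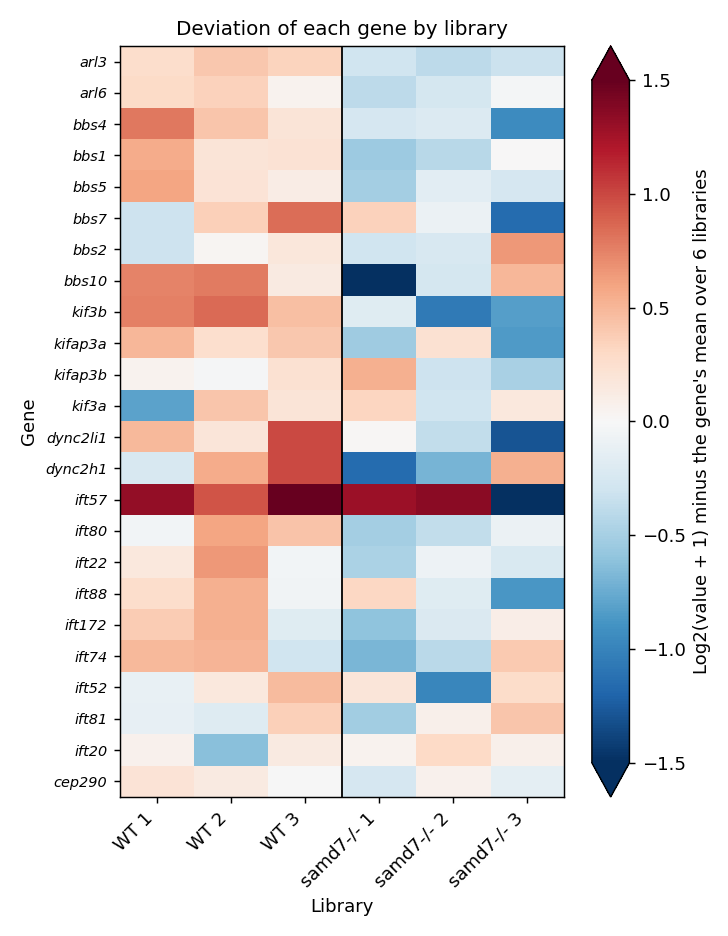
Log2(value + 1) of each of the 24 genes (rows) in each library (columns), less the gene's mean over the 6 libraries, with red above and blue below that mean and colours saturated at 1.5. WT columns are mostly red and mutant-labelled columns mostly blue for the small GTPases and for bbs4, bbs1 and bbs5. Mutant-labelled library 3 departs from its group upward for bbs2, ift74, dync2h1 and bbs10, among others. It departs downward for bbs7, dync2li1 and ift57.

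Summed markers of other cells of the eye also differed between the genotypes, and their part in the differences above was not tested. Summed markers of horizontal cells (8 in the table of 10) were at 7262 to 8046 in WT and 13294 to 14873 in mutant-labelled libraries, and those of dividing cells (15 of 16) at 15261 to 18611 and 26404 to 29919. Markers of Müller glia (9 of 10) were at 32050 to 41370 and 49929 to 80366, of bipolar cells (11 of 12) at 3171 to 3961 and 5289 to 6601, and of ganglion cells (11 of 12, with gap43 at 0) at 1641 to 1876 and 2283 to 2892. Most of the bipolar sum was isl1, at 2408 to 2992 in WT and 3936 to 4951 in mutant-labelled libraries. Of the 9 bipolar markers tested 0 were below 0, against 47.6% of all tested genes, but isl1 was the only call. Some had few counts, such as cabp5a with 33.7, 0 and 0 in WT and 36.3, 0 and 41.0 in mutant-labelled libraries. The median log2 difference of the 9 was 1.11, and 0.59 without both outlying libraries. In the Müller glia sum glula had means of 15423 and 32153, while apoeb had 11765 and 11890. Of the 9 Müller glia markers tested 1 was below 0, against 47.6% of all tested genes. The pigment epithelium markers (8 of 10) summed to 1532 to 2720 in WT and 707 to 1260 in mutant-labelled libraries, but this came from rgra, which fell to 37.1% of WT (limma adjusted p = 0.00849). Of the 7 tested only 2 were below 0, against 47.6% of all tested genes. The median log2 difference of the 7 was 1.23, which turned to -0.22 without both outlying libraries. Amacrine markers (11 of 12, with th at 0) overlapped, at 13982 to 21024 and 18906 to 21188, as did rod markers (12 of 15), at 21551 to 95779 and 24484 to 75962. Even so, 10 of the 12 rod markers tested were below 0, against 47.6% of all tested genes. Their median log2 difference was -1.06 (-0.83 under library totals and -1.43 without both outlying libraries). The markers that rose were cx52.9, onecut1 and barhl2 of horizontal cells, mki67, top2a and aurkb of dividing cells, glula of Müller glia, isl1 of bipolar and tfap2b of amacrine cells, with log2 changes between 0.75 (isl1) and 1.59 (tfap2b). Of all 9886 tested genes 125 rose. The amacrine list went both ways, with 3 of its 9 tested markers below 0 and tfap2b its only call. Of the rod and ganglion cell markers 0 passed with limma under the authors' factors or with edgeR, and 2, gnb1a and saga, passed with DESeq2. The rod marker gnb1a was higher, without overlap, and also passed with limma under library totals (adjusted p = 0.0213). Of the 12 rod and 9 ganglion cell markers tested 5 reached an unadjusted limma p under 0.05. These were 3 rod markers that were lower, and 1 rod and 1 ganglion cell marker that were higher. Of all 9886 tested genes 974 were lower and 919 higher at that threshold. The marker calls by limma under the authors' factors, that of rgra included, held in 6 to 15 of 16 alternatives each.

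Cells with motile cilia also use IFT. Of 23 motile cilium genes 19 were in the table and 8 were tested, while dnah9, dnai1.2 (listed as zgc:158666), ccdc114, ccdc151, dnaaf2 and cfap52 were at 0 in all 6 libraries. Of the 8 tested 4 were below 0, against 47.6% of all tested genes, with a median log2 difference of -0.31. That median was -0.075 under library totals and -0.68 without both outlying libraries. The summed level of the list was 6449 to 7139 in WT and 3725 to 5229 in mutant-labelled libraries. Most of this sum came from spag1a, which encodes a cytoplasmic assembly factor of dynein arms. That gene fell from 5541 ± 131 to 3345 ± 658 (log2 change -0.75, limma adjusted p = 0.0363), and its call held in 6 of 16 alternatives, with an adjusted p of 0.0589 with edgeR, up to 0.119 with 1 library left out (WT library 2) and of 0.279 without the trend and robust options.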

How the data were processed

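RNA from sorted cells was made into complementary DNA with a kit for ultra-low input, using 300 pg of RNA per library and 14 cycles, and the libraries were amplified for another 15 cycles, per the labels' protocols. Per the submitters' processing notes, build danRer10 was used, with DESeq2 1.34.0 in R 4.1.3, HTSeq 0.9.1, STAR 2.7.2b and Trim Galore 0.6.1. No annotation, strand setting or treatment of shared reads is given in the sources used here. The deposited library values are a signal made by the authors, read counts divided by a size factor per library: 100% of values above 0 were whole multiples of 1 step to within 0.01 read. Whole reads recovered this way gave 13435570 to 20369266 per library, and edgeR called 379 genes on them. The log2 fold changes and adjusted p-values deposited by the authors are quoted only where named as theirs. No molecular identifiers are described, so limits from read numbers cover counting error only.

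Genes with at least 10 normalized counts in 3 of 6 libraries were tested with limma 3.58.1 (R 4.3.3) on log2(value + 1), with genotype as the only term and trend and robust options. The added 1 by itself draws fold changes of low genes toward 0, but limma differences were not always smaller than those of edgeR. They were larger in size for bbs10 (-1.11 and -0.84), dync2h1 (-0.88 and -0.78) and ift57 (-2.59 and -0.59). For ift22 (-0.52 and -0.54) that of edgeR was the larger. The fit was tested on simulated data. Alternatives were edgeR 4.0.16, DESeq2 1.42.0, other scaling, pseudocounts and filters, the replicate number as a block, and leaving out libraries. Ratios between genes were compared with exact permutation tests (scipy 1.17.1). One gene of the rule for members is not reported here and enters no value over the members. The genes and lists were chosen with earlier results of these data known. Values per library are given for members that passed limma, the 10 with the largest log2 difference, and all motor and small GTPase genes and cep290. Other list genes were named where they passed or were at 0, and others besides were named with their values known. These were kif3cb, arl3l1, arl3l2, wdr34, dynll2b, dynlt1, wdr35, ttc21b, ttc26, bbip1, hspb11, mak, opn1sw1, gnb1a, saga, apoeb and the genes around ARL3 that did not pass. List symbols were matched by name or by an older name in the RefSeq table of assembly GRCz12tu, and no coordinates are given because the build differs. No sequences were used here.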

Additional observations from a re-analysis of the deposited data

How the results depend on the processing

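The number of members that passed, 1, was 0 with library totals, 0 without limma's trend and robust options, 0 without a filter, 0 without both WT library 2 and mutant-labelled library 3 (chosen after seeing the data), and 0 to 1 with 1 library left out. It was 2 with DESeq2, with a pseudocount of 10 and with a filter of 50, and 1 with edgeR. With the replicate block it was also 1, but this was bbs4 and not arl3. Over all genes 511 changed, against 27 without the trend and robust options, 870 with DESeq2, 294 without both outlying libraries, and 225 to 573 with 1 library left out. The replicate block gave 431. Same-numbered libraries deviated together with correlations of 0.0456, -0.0338 and 0.0115, so the numbers were not taken to pair them. Signs turned for genes that did not pass: under library totals cep290 (0.0078), kifap3b (0.058) and ift81 (0.21), for ift81 also with edgeR (0.0046) and DESeq2 (0.0037), and for bbs2 without both outlying libraries (-0.20). With 1 library left out log2 differences ranged from -0.57 to 0.054 for ift52, -3.92 to 0.016 for ift57, -0.23 to 0.25 for bbs2, -0.48 to 0.025 for kifap3b, -0.24 to 0.36 for kif3a and -0.24 to 0.23 for ift81. The cause was not tested. Members with few reads, such as bbs10 and dync2h1, had wide intervals, and a missed threshold there does not show an equal level.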

Other observations

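The table lists further copies of arl3, which were chosen after their values were seen. The level of arl3l1 was 46288, 51170 and 49487 in WT and 22982, 21398 and 24236 in mutant-labelled libraries, and it fell (log2 change -1.10, SE 0.15, limma adjusted p = 0.000565). That of arl3l2 was 17011, 15313 and 18788 against 8475, 7021 and 11242, and it fell as well (log2 change -0.96, SE 0.19, limma adjusted p = 0.00943), with the call lost without WT library 3 (0.0513). Neither call held without the trend and robust options (adjusted p = 0.152 and 0.245). The share of arl3 in the summed counts of the 3 copies does not depend on library scaling. Because lengths differ between genes, it cannot be read as a share of molecules. It was 7.18%, 7.54% and 7.03% in WT and 9.57%, 9.86% and 8.45% in mutant-labelled libraries. The genotypes did not overlap (two-sided exact permutation p = 0.1, the smallest possible here, and 0.2 when adjusted over the 4 ratios compared). Reads shared between the copies may have been divided between them in a way the sources used here do not describe.

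The ratio of kif3b to kif3a within a library, also chosen after the data were seen, had its highest mutant-labelled value below its lowest WT value. Its log2 value was -1.22, -2.33 and -2.51 in WT and -3.28, -3.55 and -3.76 in mutant-labelled libraries (two-sided exact permutation p = 0.1, adjusted 0.2). WT library 1, with the lowest kif3a level, stood apart from the other WT libraries.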
